A study of Homo sapiens with 6 samples.

Results

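Of the 12499 genes in the count table, 49 (0.392%) had at least 60 raw reads in every library labeled LV-*ATF7* and at most 10 in every library labeled LV-NC. Symbols starting with KRT, SERPINB, S100, HOX, COL, WNT, IFI, OAS, SPRR, MMP or AKR1, and *LY6D*, were left out of the count by the rule. With these families kept in, 57 genes met the same thresholds, the 8 others being *SERPINB4*, *S100A7A*, *SERPINB3*, *MMP1*, *S100A8*, *LY6D*, *KRT3* and *WNT5B*. With the groups exchanged, 18 genes (0.144%) met the thresholds. The 49 genes were chosen by their counts in the LV-*ATF7* against LV-NC contrast itself, so their counts and folds are a description and carry no test.

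The cells were HaCaT, an immortalized line of human keratinocytes, the cells that build the epidermis. Cells of both groups were infected with a lentivirus for 48 hours and then kept in high glucose (HG) for 24 hours. The virus carried human *ATF7*, a transcription factor of the ATF/CREB family, in the LV-*ATF7* group (n = 3 libraries) and was a negative control in the LV-NC group (n = 3 libraries). Poly(A) RNA was sequenced in bulk, and total counts per library were 16686472 to 20562768. All libraries came from 1 cell line infected with virus and kept in HG, so neither uninfected cells nor cells in normal glucose were analyzed here, and the promoter driving *ATF7* in the virus is not given in the sources used here.

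*ATF7* itself went against the group labels. Libraries labeled LV-*ATF7* held 392, 505 and 506 of its reads, and those labeled LV-NC held 945, 886 and 902. The groups did not overlap, and *ATF7* was lower under the LV-*ATF7* label (log2 fold change -0.98, SE 0.12, edgeR adjusted p = 1.89e-04). Other genes share 18.2% of its exon length on the same strand and 27.1% on the opposite strand. By other assays, qRT-PCR and western blot, the paper reports *ATF7* overexpression in HaCaT cells infected with LV-*ATF7*. Why the counts here differ from that report was not tested. Every direction given here is therefore between libraries as labeled. One LV-NC library, replicate 1, also stood apart: the chi-square of its counts against the other LV-NC libraries was 66.8 and 74.6 per gene, against 2.83 to 10.4 for all other pairs within a group. It held 1230 of the *PIGR* counts and 7 of the *KRT14* counts given with the lists of markers, and the log2 fold changes without it stand there.

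Keratinocytes of the basal layer divide, and as they move outward they switch on genes for the cornified envelope, for lipid processing and for defense at the surface. They also make chemokines, which draw leukocytes into skin. Enzymes in these cells make or break down retinoids and vitamin D, which act on epidermal differentiation through nuclear receptors.

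Upstream sequence of the 49 genes was read from RefSeq (GRCh38.p14) as 250 bases before and 50 bases from the annotated start of each gene, and 33 of the 49 (67.3%) had an entry. Since fewer than 80% matched, a comparison of motif shares, GC content or CpG content between these genes and all promoters is void. The shares over all promoters below say how common each motif is and are not set against the 33 windows. Motifs were searched on both strands by their letters. These were TATAAA for the box near which many promoters start, TGACGTCA for the cAMP response element bound by ATF/CREB factors, TGANTCA for the site of AP-1, and ATGCAAAT for the octamer bound by the POU factors that *POU2AF1* assists. Of all 27305 promoters of this length, 12.0% held TATAAA, 1.98% TGACGTCA, 7.76% TGANTCA and 1.80% ATGCAAAT. Of the 33 windows, 5 held TATAAA, 6 TGANTCA, 1 ATGCAAAT and 0 TGACGTCA. The start is the one in RefSeq and need not be the start used in these cells: 8 of the 33 windows, those of *CPS1* and *DHRS9* among them, lay inside the GENCODE span of the gene. Others, such as that of *CLDN16*, ended before that span. The following 5 are examples from epidermal, retinoid, immune and urea cycle genes, picked among the 12 windows with a match, which is in capitals, and written in the direction of transcription. Windows of *CD200R1L*, *CLDN16*, *DNASE1L3*, *FMO1*, *PLEKHG4*, *SYTL5* and *TNIP3* also held a match and are not printed. They are *CASP14* (chr19:15049230-15049529, plus strand), *HRNR* (chr1:152224144-152224443, minus strand), *DHRS9* (chr2:169066827-169067126, plus strand), *VTCN1* (chr1:117210878-117211177, minus strand) and *CPS1* (chr2:210593105-210593404, plus strand).
CASP14: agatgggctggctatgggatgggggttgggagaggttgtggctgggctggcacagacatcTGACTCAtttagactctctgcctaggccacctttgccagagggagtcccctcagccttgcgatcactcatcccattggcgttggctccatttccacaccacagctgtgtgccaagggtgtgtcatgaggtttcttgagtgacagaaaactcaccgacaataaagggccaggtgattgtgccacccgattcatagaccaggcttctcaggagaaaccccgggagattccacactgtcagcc
HRNR: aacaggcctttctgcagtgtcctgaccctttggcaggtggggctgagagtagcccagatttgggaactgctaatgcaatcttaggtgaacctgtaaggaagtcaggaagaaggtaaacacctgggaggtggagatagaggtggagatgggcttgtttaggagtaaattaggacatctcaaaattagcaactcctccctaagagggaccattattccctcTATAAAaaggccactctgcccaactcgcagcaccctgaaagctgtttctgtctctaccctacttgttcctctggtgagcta
DHRS9: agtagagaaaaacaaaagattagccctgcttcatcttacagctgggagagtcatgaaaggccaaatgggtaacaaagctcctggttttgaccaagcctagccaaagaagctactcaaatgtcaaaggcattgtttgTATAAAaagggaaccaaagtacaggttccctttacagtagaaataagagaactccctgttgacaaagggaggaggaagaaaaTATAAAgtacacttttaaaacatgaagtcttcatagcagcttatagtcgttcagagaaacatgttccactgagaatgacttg
VTCN1: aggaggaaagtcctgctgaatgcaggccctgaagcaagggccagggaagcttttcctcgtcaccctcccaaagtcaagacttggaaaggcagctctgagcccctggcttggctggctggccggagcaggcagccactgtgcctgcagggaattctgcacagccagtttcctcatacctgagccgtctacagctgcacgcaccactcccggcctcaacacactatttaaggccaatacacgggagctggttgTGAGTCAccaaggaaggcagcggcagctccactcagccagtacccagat
CPS1: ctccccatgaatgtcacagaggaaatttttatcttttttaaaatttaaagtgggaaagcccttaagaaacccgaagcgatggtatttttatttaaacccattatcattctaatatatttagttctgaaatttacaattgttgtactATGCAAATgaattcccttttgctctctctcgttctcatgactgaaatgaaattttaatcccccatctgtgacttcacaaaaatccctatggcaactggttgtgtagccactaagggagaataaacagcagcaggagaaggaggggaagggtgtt
Counting from the start base as 0, the TGANTCA match began at -190 in *CASP14* and at 1 in *VTCN1*. TATAAA began at -31 in *HRNR* and at -114 and -32 in *DHRS9*, and ATGCAAAT began at -104 in *CPS1*. A match is a run of letters and not a bound site, and a window without a match says only that these letters are not in it.

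All 49 genes are protein coding in GENCODE release 29 (GRCh38), the annotation used for the positions given here. Summed over the 49 genes, counts were 7322, 7841 and 7236 under the LV-*ATF7* label, or 408.7, 399.7 and 400.1 CPM after TMM scaling, CPM being counts scaled to library size. Under the LV-NC label the sums were 174, 142 and 148 counts, or 9.32, 7.44 and 8.57 CPM. These sums follow from the thresholds. Although the genes were picked for near absence under the LV-NC label, they were not absent: only *POU2AF1* was at 0 in all 3 LV-NC libraries, and 27 had a read in each of the 3. At 0 were 6 genes in LV-NC replicate 1, 16 in replicate 2 and 12 in replicate 3, and 18 genes had 3 reads or fewer in every LV-NC library. In bulk RNA, fewer cells with a transcript and less of it in each cell cannot be told apart.

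**Figure D1:**
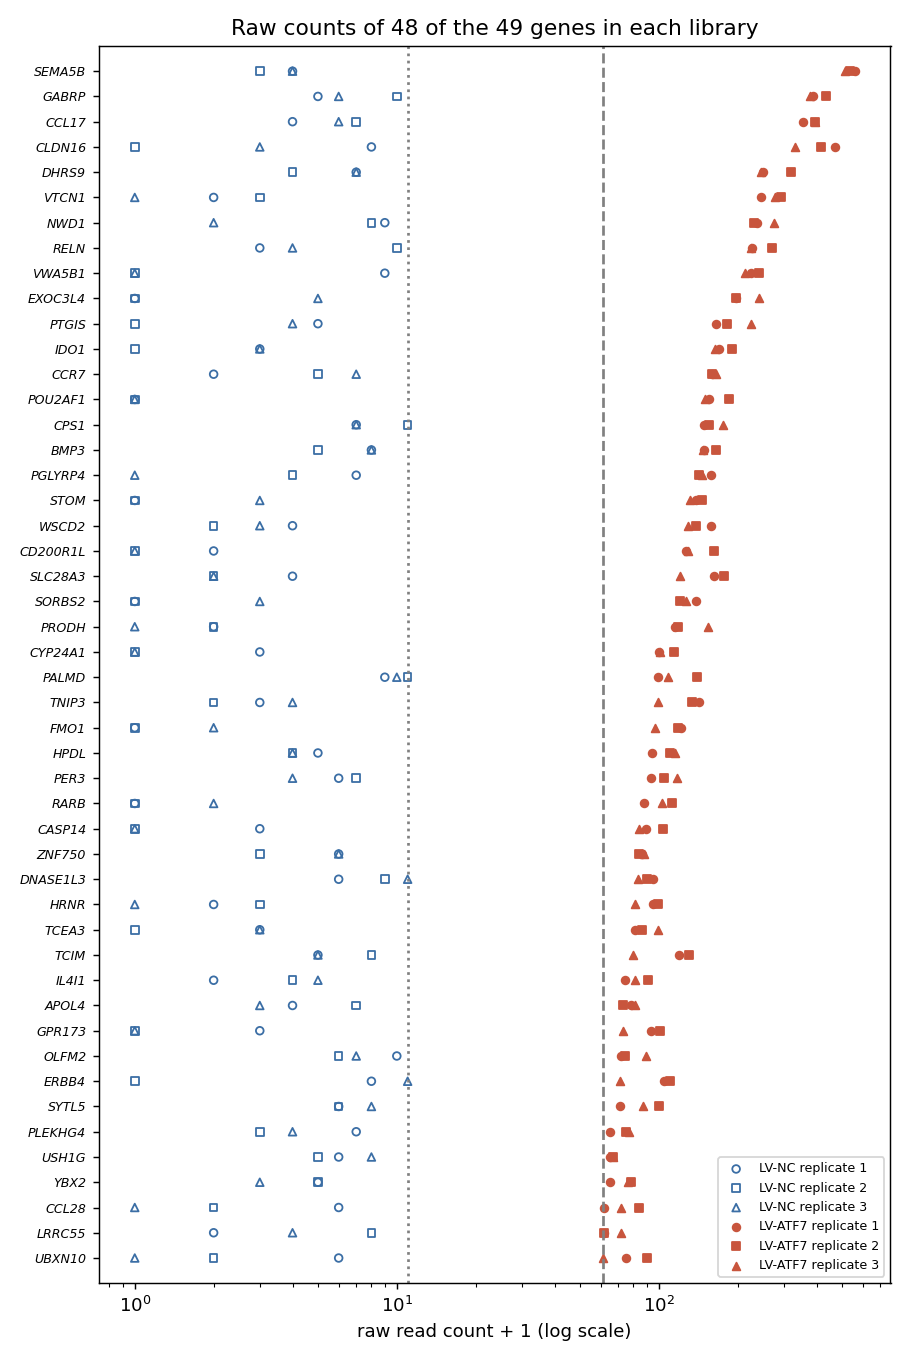
Raw read count plus 1 (log scale) of 48 of the 49 genes in the 6 libraries, with open blue symbols for the LV-NC label and filled red symbols for the LV-*ATF7* label, one marker shape per replicate. The dotted line stands at the limit of 10 counts and the dashed line at the minimum of 60; the highest count of any of these genes in an LV-NC library was 10 and the lowest in an LV-*ATF7* library was 60.

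**Figure D2:**
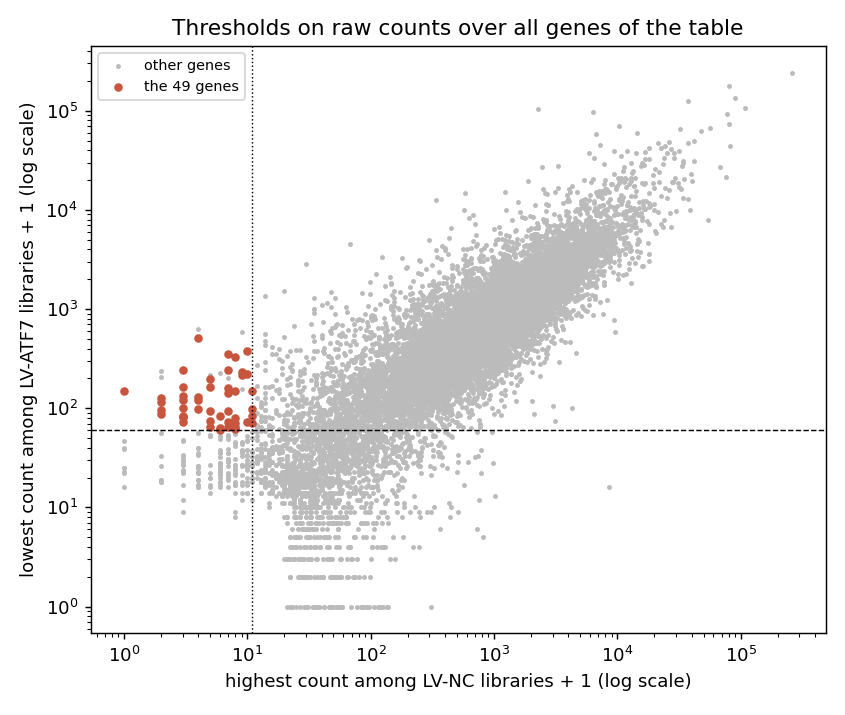
Lowest count among the LV-*ATF7* libraries against the highest count among the LV-NC libraries, both plus 1 on log scales, for each of the 12499 genes, with the 49 genes in red. The thresholds cut through a continuous cloud, and gray points inside the upper left corner are the 8 genes left out by family.

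Immune signaling genes made up 11 of the 49, grouped by role after their values were seen. These were the chemokines *CCL17* and *CCL28*, the chemokine receptor *CCR7*, the T cell restraining ligand *VTCN1*, the CD200 receptor relative *CD200R1L*, the coactivator *POU2AF1*, the amino acid degrading enzymes *IDO1* and *IL4I1*, the antibacterial protein *PGLYRP4*, the NF-κB pathway inhibitor *TNIP3* and the secreted nuclease *DNASE1L3*. Their counts under the LV-*ATF7* label ran from 61 to 395.

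*CCL17* (ENSG00000102970, chromosome 16, 57404767 to 57416062, plus strand), a chemokine that draws T cells through the receptor CCR4, had 355, 395 and 394 counts under the LV-*ATF7* label and 3, 6 and 5 under the LV-NC label. The ratio of scaled sums was 80.9, with a 95% counting interval of 48.0 to 148.4, and the lack of overlap between the groups is fixed by the rule for all 49 genes. Per length it was the most abundant of the 49 genes in the LV-*ATF7* libraries, at 33.2 TMM CPM per kilobase of exon (RPKM), and the only one above the median of all genes. Its position among all genes on that scale was percentile 89.4.

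*VTCN1* (ENSG00000134258, chromosome 1, 117143587 to 117210960, minus strand) encodes B7-H4, a ligand that restrains T cells. It had 244, 291 and 277 counts against 1, 2 and 0 (267.8-fold, interval 91.3 to 1301). *CD200R1L*, a relative of the inhibitory receptor for CD200, had 126, 161 and 128 counts against 1, 0 and 0. With a single read under the LV-NC label its ratio of 410.6 has a counting interval of 73.3 to 16258, so its place as the highest ratio of the 49 rests on that 1 read.

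*POU2AF1* (ENSG00000110777, chromosome 11, 111352252 to 111455630, minus strand) is a coactivator of octamer-binding POU factors, best known from B cells. Its counts were 155, 184 and 149 under the LV-*ATF7* label and 0, 0 and 0 under the LV-NC label. Against a floor of 3 counts per library it was at least 53.4-fold higher. Its neighbor and relative *POU2AF3* (43517 bp away), a coactivator of *POU2F3* in tuft cells, was not among the 49 and was tested on its own: 261, 301 and 297 counts against 21, 6 and 20 (log2 fold change 4.16, SE 0.35, edgeR adjusted p = 2.59e-05).

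*IDO1*, on chromosome 8, opens the kynurenine pathway of tryptophan breakdown and had 169, 189 and 163 counts against 2, 0 and 2. *CCR7*, the receptor that guides leukocytes to lymph nodes, had 159, 159 and 164 against 1, 4 and 6. The 3 LV-*ATF7* libraries were nearly level for both genes, and the ratios were 128.9 (50 to 474.8) and 43.4 (24.0 to 87.4). *PGLYRP4*, which binds bacterial peptidoglycan, had 157, 141 and 145 counts against 6, 3 and 0 (48.7-fold, 25.4 to 107.2).

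The lowest ratio of all 49 was in this group as well. *DNASE1L3* had 94, 89 and 82 counts against 5, 8 and 10, which is 11.4-fold (7.4 to 18.3). Its highest LV-NC count lay on the limit of the rule. *CCL28*, a chemokine of mucosal surfaces, sat at the other limit with 61, 83 and 71 counts against 5, 1 and 0. *IL4I1* shares 13.1% of its exon length with other genes on the same strand, and its counts could hold reads of those genes.

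The gene with the highest counts encodes a guidance molecule. *SEMA5B* (ENSG00000082684, chromosome 3, 122909082 to 123028605, minus strand), a transmembrane semaphorin of axon guidance, had 557, 534 and 514 counts under the LV-*ATF7* label and 3, 2 and 3 under the LV-NC label. The ratio was 198.5 (100.5 to 460.6). *RELN*, which encodes the matrix glycoprotein reelin of neuronal migration, had 225, 270 and 223 counts against 2, 9 and 3 (50.7-fold, 30 to 93.3). *BMP3*, a member of the bone morphogenetic protein family that opposes bone formation, had 148, 164 and 147 counts against 7, 4 and 7. It was the steadiest of the 49 genes among the LV-*ATF7* libraries, with a coefficient of variation (CV) of CPM of 1.40%.

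Of channels, junction proteins, transporters and surface receptors there were 6. *GABRP* (ENSG00000094755, chromosome 5, 170763350 to 170814047, plus strand), a subunit of GABA-gated chloride channels that is found mainly outside the nervous system, had 387, 432 and 377 counts against 4, 9 and 5 (65.7-fold, 41.4 to 111.3). *CLDN16* (ENSG00000113946, chromosome 3, 190322541 to 190412143, plus strand), a tight junction claudin known for magnesium handling in kidney, had 470, 413 and 330 counts against 7, 0 and 2 (133.4-fold, 70.0 to 292.4). Without its highest LV-NC library the ratio moved up by 1.57 on the log2 scale, that library being LV-NC replicate 1.

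*SLC28A3*, a sodium-driven nucleoside transporter, had 162, 177 and 119 counts against 3, 1 and 1 (90.6-fold, 38.6 to 280.5). LV-*ATF7* replicate 3 was the lowest library for *CLDN16* and *SLC28A3*. It was also the lowest for *ERBB4*, a receptor for neuregulins, with 104, 109 and 70 counts against 7, 0 and 10. *LRRC55*, an accessory subunit of potassium channels, lay just inside the minimum with 61, 61 and 71 counts against 1, 7 and 3.

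Enzymes and 1 nuclear receptor made up 9 of the 49 genes. *DHRS9* (ENSG00000073737, chromosome 2, 169064789 to 169096167, plus strand), a short-chain dehydrogenase that acts on retinol, had 249, 319 and 244 counts against 6, 3 and 6 (53.6-fold, 32.3 to 96.1). *RARB*, a retinoic acid receptor named here after its values were seen, had 87, 111 and 102 counts against 0, 0 and 1. Both belong to the retinoid pathway. The *RARB* ratio of 296.8 rests on 1 read (52.9 to 11763).

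*PTGIS*, the synthase of prostacyclin, had 164, 181 and 224 counts against 4, 0 and 3 (80.4-fold, 38.8 to 201.0). *CYP24A1*, the mitochondrial hydroxylase that breaks down active vitamin D, had 99, 113 and 100 counts against 2, 0 and 0 (154.4-fold, 42.4 to 1280). Both LV-NC reads were in replicate 1, and without that library the ratio, then a lower bound against the floor of 3 counts per library, moved by -2.18 on the log2 scale. *FMO1*, a flavin monooxygenase, and *HPDL* belonged to this role as well, with LV-*ATF7* counts between 93 and 120.

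*CPS1*, the mitochondrial enzyme of the first step of the urea cycle, had 148, 155 and 174 counts against 6, 10 and 6 (21.5-fold, 14 to 34.6). *PRODH*, which starts proline breakdown in mitochondria, had 114, 117 and 153 counts against 1, 1 and 0 (190.0-fold, 52.2 to 1574). The symbol *PRODH* stands under 2 identifiers in the table. The copy on chromosome 22 (ENSG00000100033, 18912777 to 18936553) is the one that met the rule. The copy on a scaffold outside the assembled chromosomes (ENSG00000277196) had 672, 772 and 759 counts against 23, 10 and 8, and the sum of both copies, 786, 889 and 912 against 24, 11 and 8, would not meet the limit of 10. Reads of near-identical copies can be split between them, so the value of either copy alone is uncertain.

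Epidermal differentiation was represented by 3 genes, which fell outside the rule for naming genes and were chosen after their values were seen. *CASP14*, a caspase of cornification that processes filaggrin, had 88, 103 and 83 counts against 2, 0 and 0 (135.6-fold, 37.2 to 1125). *HRNR*, which encodes hornerin of the cornified envelope, had 94, 98 and 80 counts against 1, 2 and 0 (89.7-fold, 30.4 to 437.7). *ZNF750*, a transcription factor of terminal differentiation, had 85, 83 and 87 counts against 5, 2 and 5 (21-fold, 11.8 to 41.2). All 3 were present at a low level, with 0.508 to 1.41 RPKM in the LV-*ATF7* libraries.

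The remaining 16 genes included scaffold, trafficking and other proteins (12) and regulators of transcription, the clock or RNA (4). *NWD1*, with NACHT and WD repeat domains, had 235, 229 and 274 counts against 8, 7 and 1. *VWA5B1*, named for a von Willebrand factor A domain, had 224, 240 and 213 against 8, 0 and 0. *EXOC3L4*, a relative of an exocyst subunit, had 196, 196 and 240 against 0, 0 and 4. In the last pair all LV-NC reads came from 1 library each.

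*STOM*, the membrane scaffold protein stomatin, had 138, 145 and 131 counts against 0, 0 and 2 (204.8-fold, 56.3 to 1697). *WSCD2* had 157, 137 and 128 against 3, 1 and 2. *SORBS2*, an adaptor of the actin cytoskeleton, had 137, 119 and 126 against 0, 0 and 2. For *STOM* and *SORBS2* the LV-NC reads were all in replicate 3, without which both ratios, then lower bounds against the floor, moved by -2.13 on the log2 scale. *PALMD*, the cytosolic protein palmdelphin, had 98, 139 and 107 counts against 8, 10 and 9 and one of the lower ratios, 12.6 (8.5 to 19.4). Among the 4 regulators, all named after their values were seen, *PER3*, a component of the circadian clock, had 92, 104 and 116 counts against 5, 6 and 3, while 16.7% of its exon length is shared with genes on the opposite strand.

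Across the 48 genes with any LV-NC read, the median ratio was 52.2 and the range 11.4 to 410.6. By lowest LV-*ATF7* count, 9 genes had at least 200, 14 had at least 100 but fewer than 200 and 26 had under 100. Of the genes without their own counts here, 12 (*TNIP3*, *FMO1*, *HPDL*, *TCEA3*, *IL4I1*, *APOL4*, *GPR173*, *OLFM2*, *SYTL5*, *PLEKHG4*, *USH1G* and *YBX2*) had 64 to 141 counts under the LV-*ATF7* label and 0 to 9 under the LV-NC label, with ratios from 11.5 for *OLFM2* to 329.5 for *FMO1*. Just inside the minimum stood *UBXN10* (74, 89 and 60 against 5, 1 and 0), *CCL28* and *LRRC55*, and just outside it *C2CD4A* (59, 56 and 81 against 10, 4 and 2) and *APOBR* (62, 55 and 67 against 2, 4 and 7). At the limit of 10 LV-NC counts stood *CPS1*, *DNASE1L3*, *ERBB4* and *PALMD*. At 11, just past it, stood *ABCA10* (204, 165 and 187 against 5, 11 and 6), *NID1* (286, 274 and 307 against 10, 11 and 8), *ARHGEF25*, *CPVL*, *ERP27* and *PRICKLE1*.

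Even under the LV-*ATF7* label most of the 49 genes were weakly expressed. Their median level was 6.16 CPM (3.48 to 28.9), against 33.7 CPM over all 12462 genes tested. Per length, the median was 1.44 RPKM (0.390 to 33.2), against 6.36 over all genes, and 35 of the 49 lay at or below percentile 25 of all genes. The rule bounds the LV-*ATF7* count from below only, so a low level in those libraries is not fixed by it, although the limit on the LV-NC count favors genes of low level.

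Spread among the 3 LV-*ATF7* libraries was not used by the rule. The CV of CPM had a median of 9.98% over the 49 genes (1.40% to 21.9%) and of 7.65% over all genes tested. Relative to the CV that Poisson counting alone gives at each gene's depth, the median ratio was 1.05 for the 49 genes and 1.75 over all genes tested, and 22 of the 49 were under their Poisson value and 9 were over 2 times it. The genes tested had higher counts in general, so the 2 medians stand at different depths. The 3 largest CVs were those of *TCIM* (118, 129 and 79 counts, 21.9%), *ERBB4* (20.7%) and *PRODH* (19.4%). No library dominated: LV-*ATF7* replicates 1, 2 and 3 gave the highest CPM for 16, 15 and 18 genes and the lowest for 14, 15 and 20. For *TCIM* and *ERBB4* replicate 3 was low, and for *PRODH* it was high.

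**Figure D3:**
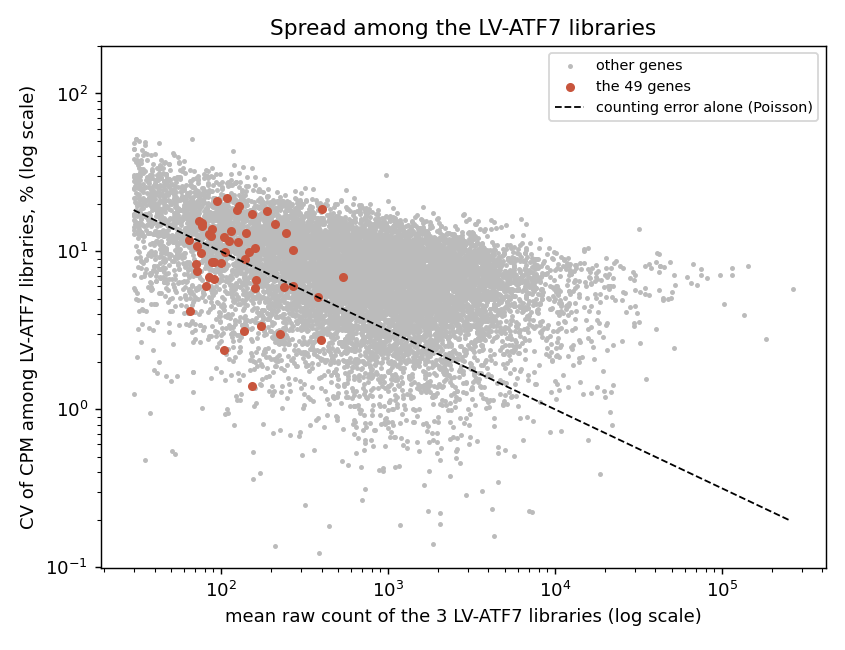
CV of CPM among the 3 LV-*ATF7* libraries, in percent, against the mean raw count in them, both on log scales, for the 49 genes (red) and other genes averaging 30 counts or more (gray). The dashed line is the CV of Poisson counting alone. The 49 genes scatter about it, with 22 below their Poisson value.

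In the genome the 49 genes were mostly apart from each other. Only 2 pairs lay within 500 kb: *UBXN10* and *VWA5B1* on chromosome 1 (94871 bp apart) and *IDO1* and *TCIM* on chromosome 8 (225011 bp apart). Chromosome 1 held 10 of the 49 genes and 1281 of all genes, chromosome 3 held 5 of 690, and chromosomes 17 and 19 held 4 each.

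The other genes near them could be tested, since the rule did not use their counts, except that *S100A8* and *S100A7A* met its thresholds and were left out by family. Within 100 kb of 34 of the 49 genes lay 111 tested genes that did not overlap them. A gene was called where edgeR gave an adjusted p under 0.05 and the fold change reached 1.5. Of the 111 neighbors, 40 (36.0%) were higher and 25 (22.5%) lower under the LV-*ATF7* label. The 111 and the 40 include *S100A8* and *S100A7A*, whose calls follow from the thresholds of the rule. Over all 12462 genes tested, 28.2% were higher and 24.6% lower. The median log2 fold change of the neighbors was 0.26, and that of all genes was close to 0. Within 50 kb the share higher was 38.2% of 68 genes, and within 500 kb 31.4% of 488. Neighbors share loci with each other, and their share is a description beside the background.

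Large changes near single genes of the 49 included chemokine and S100 genes. Beside *CCL17*, *CCL22*, the other chemokine that binds CCR4, rose from 13, 34 and 34 to 1299, 1544 and 1592 counts (log2 fold change 5.75, SE 0.29, edgeR adjusted p = 2.74e-06). The chemokine *CX3CL1* rose there too (3.31), as did *CCDC102A* (3.68), while *DOK4* (-1.49) and *POLR2C* (-0.63) fell and *CIAPIN1* (0.03) did not pass. The locus of *CCL17* held calls in both directions.

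*TNFAIP2*, 12883 bp from *EXOC3L4* and a gene induced by tumor necrosis factor, rose from 2272, 1734 and 1620 counts to 104116, 118947 and 122086 (log2 fold change 5.93, SE 0.18, edgeR adjusted p = 7.9e-07). *LRP2*, an endocytic receptor beside *DHRS9*, rose by 4.86 on the log2 scale. *TNS4* and *IGFBP4* beside *CCR7* rose by 4.62 and 4.51, and *BCAS1* beside *CYP24A1* by 4.30, or 8.76 without LV-NC replicate 2 and 3.70 without LV-NC replicate 1. In the cluster of S100 genes near *PGLYRP4*, *S100A9*, a subunit of calprotectin, rose from 53, 66 and 67 to 4502, 5028 and 4899 counts (6.26), beside *S100A8* and *S100A7A*. The tight junction gene *CLDN1*, 66 bp from *CLDN16* by GENCODE spans, rose from 5891, 3935 and 3647 to 40114, 42749 and 37957 counts (3.15). It was named after its value was seen. The RefSeq window of *CLDN16* (190290111 to 190290410) lies below its GENCODE start of 190322541, so this distance depends on the annotation.

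Other neighbors named after their values were seen were *FLG* near *HRNR* (3.46), *APOL3* near *APOL4* (3.52), and *FMO2* and *FMO4* beside *FMO1*. *FMO4* rose by 2.66 on the log2 scale. *FMO2* was at 0 in all LV-NC libraries and had 27, 24 and 33 counts in the LV-*ATF7* libraries, at least 9.27-fold higher against the floor of 3 counts per library. The largest fall near any of the 49 genes was that of *COL5A3*, a fibrillar collagen gene near *OLFM2*, from 58, 113 and 124 counts to 3, 1 and 0 (log2 fold change -6.10, SE 0.63). A further 5 tested genes overlapped one of the 49 and were counted apart, of which 3 were higher (*ATF5* and *NUP62* over *IL4I1*, *SLC2A4* over *YBX2*) and 0 lower.

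**Figure D4:**
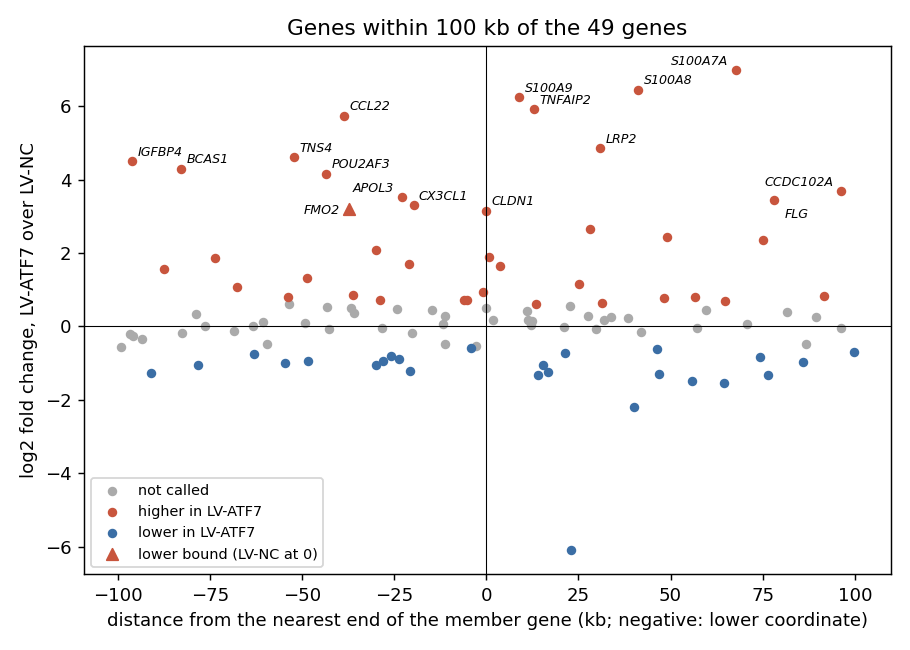
Log2 fold change (LV-*ATF7* over LV-NC label) of the 111 tested genes within 100 kb of one of the 49 genes against the distance between the gene spans, in kilobases. Red points passed the test as higher (40) and blue points as lower (25), gray points did not pass, and the triangle is the lower bound of *FMO2*. The 40 include *S100A8* and *S100A7A*, which met the thresholds of the rule.

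Relatives were taken as genes that share the root of the symbol, such as CCL or CLDN. There were 155 of these for 26 of the 49 genes, 153 of them tested, and 60 (39.2%) were higher and 35 (22.9%) lower under the LV-*ATF7* label, beside 28.2% and 24.6% over all genes. Their median log2 fold change was 0.23. Families moved in both directions. Among chemokines, *CCL2*, which attracts monocytes, rose from 29, 19 and 12 to 2880, 3399 and 3084 counts (log2 fold change 7.26, SE 0.22, edgeR adjusted p = 7.9e-07), whereas *CCL5* fell from 10, 183 and 175 to 5, 4 and 4 (-4.81, SE 1.06). The low *CCL5* count of 10 was that of LV-NC replicate 1.

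Among semaphorins, relatives of *SEMA5B*, *SEMA6B* rose (3.71) and *SEMA7A* fell (-3.59). *CLDN6* fell by 5.08 on the log2 scale, from 22, 53 and 38 counts to 1, 0 and 2, in contrast to *CLDN1*. *DHRS2*, a relative of *DHRS9*, fell by 8.03, from 196, 8526 and 7300 counts to 15, 28 and 19, and LV-NC replicate 1 was again the library apart. Without any single library, *CCL5*, *DHRS2* and *CLDN6* stayed past the threshold in the same direction. Among relatives named after their values were seen, *PER2* rose from 44, 52 and 48 to 707, 799 and 798 counts (3.98), and *PER1* had -0.35 and did not pass.

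Pathway partners of the 49 genes (ligands, receptors, the next enzymes) came from a list of 71 symbols written once the 49 were known, of which 52 were tested. Of these, 23 (44.2%) were higher and 10 (19.2%) lower, beside 28.2% and 24.6% over all genes tested, with a median log2 fold change of 0.51. In the retinoid pathway of *DHRS9* and *RARB*, 6 of 9 partners were higher and 2 lower. *ALDH1A2*, which makes retinoic acid, rose from 10, 15 and 8 to 367, 402 and 352 counts (log2 fold change 5.06, SE 0.21, edgeR adjusted p = 1.39e-06), and *ALDH1A3*, with the same activity, from 575, 646 and 556 to 3354, 3807 and 3233 (2.53). The retinol dehydrogenase *RDH10* (1.77), the binding protein *CRABP2* (3.78) and the receptors *RARG* (2.20) and *RXRA* (2.0) rose as well. *RARA* fell (-0.78), and so did *CYP26B1*, which degrades retinoic acid (-0.62), although 3 of 12 fits did not call it. *RXRB* had -0.07 and did not pass.

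For *IDO1*, the later kynurenine enzyme *KYNU* rose by 3.72 on the log2 scale, while *AHR*, a receptor for kynurenine, had 0.52 and *AFMID* 0.55, under the fold limit. The urea cycle partners of *CPS1* split, *ASS1* higher (570, 377 and 382 to 9988, 10895 and 11339 counts, 4.59) and *ASL* (-2.14) and *ARG2* (-2.97) lower. For *CYP24A1*, the vitamin D receptor *VDR* fell by 1.19, from 2064, 2579 and 2488 to 965, 1126 and 1070 counts, and the activating enzyme *CYP27B1* had 0.04. For *PTGIS*, *PTGS1*, the cyclooxygenase before it in the pathway, fell by 5.64, and *PTGS2* had -0.30. *PYCR1*, the proline synthesis enzyme set against *PRODH*, rose by 4.37. Of these pathways, the urea cycle held calls in both directions.

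The ligands of *ERBB4* that rose were *NRG1* (0.95), *NRG2* (1.69) and *BTC* (1.98), and *HBEGF*, *EREG* and *NRG4* did not pass. Among clock partners of *PER3*, *NR1D1* (1.57), *DBP* (2.52), *TEF* (2.48) and *CLOCK* (0.61) were higher and *CRY1* (-0.83) and *CRY2* (-0.60) lower. *CLOCK* lost its call in 4 of 12 fits and *CRY2* in 1. *FLG* and *FLG2*, barrier proteins of the family of *HRNR*, were higher (3.46 and 5.28), as was *TP63*, the basal regulator upstream of *ZNF750*, from 341, 240 and 271 to 4266, 4654 and 3961 counts (3.90, SE 0.15, edgeR adjusted p = 1.18e-06). *KLF4*, which acts with *ZNF750* in differentiation, was lower (-1.11). *SLC29A2*, a nucleoside transporter, was higher (2.40), and *BMPR2* was lower (-0.71) while *ACVR2B* was higher (0.82), both being receptors of the family of *BMP3* ligands.

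**Figure D5:**
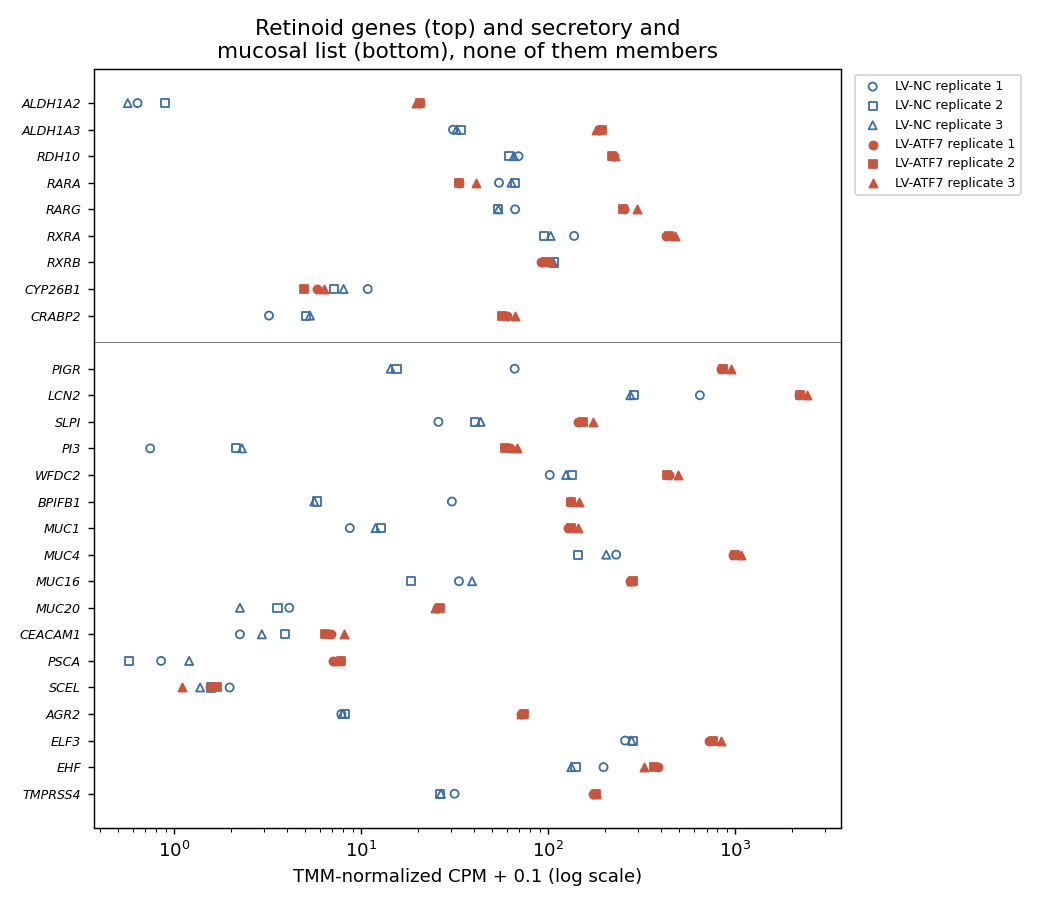
TMM-normalized CPM plus 0.1 (log scale) of the tested retinoid partners of *DHRS9* and *RARB* (upper block) and of the tested genes of the secretory and mucosal list (lower block) in each library. Symbols are as in the plot of raw counts. The groups overlap for *RXRB* and *SCEL*, and *RARA* and *CYP26B1* are lower under the LV-*ATF7* label.

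Lists of markers were read beside the 49 genes, and over all genes tested 28.2% were called higher and 24.6% lower. Basal keratinocyte markers, the identity of HaCaT cells, were all present: of 15, 7 were higher and 3 lower, and their summed level was 2921 to 3455 CPM under the LV-NC label and 8457 to 9149 under the LV-*ATF7* label. *KRT5* rose by 3.65 and *KRT15* by 3.43 on the log2 scale, while *KRT14* fell by 2.37 with 7, 239 and 195 LV-NC counts, a call lost in 7 of the 11 fits that included it and with a log2 fold change of -2.96 without LV-NC replicate 1. Of 39 epidermal differentiation symbols 22 were tested, and 2 of these were among the 49 genes (*CASP14* and *ZNF750*). Of the 20 others tested, 8 were higher, among them *FLG2* (5.28), *SPINK5* (3.94), *FLG* (3.46) and *PRDM1* (3.29). Lower were 7, among them *ELOVL4* (-3.53), *ALOXE3* (-3.0), *OVOL1* (-2.16) and *IVL* (-2.11). The median log2 fold change of these 20 was 0.13.

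Of the 29 symbols in the secretory and mucosal list 17 were tested. Of these 17, 16 were higher and 0 lower, with a median log2 fold change of 2.66. None of these 17 was among the 49 genes. *PI3*, the protease inhibitor elafin, rose by 5.27. *PIGR*, which carries immunoglobulins across epithelia, rose from 1230, 292 and 246 to 15053, 16726 and 17182 counts (4.79, or 5.87 without LV-NC replicate 1). *MUC1* (3.61) and *BPIFB1* (3.30, or 4.59 without LV-NC replicate 1) also rose, and *SCEL* had -0.20 and did not pass. The summed level was 1126 to 1643 CPM under the LV-NC label and 6557 to 7189 under the LV-*ATF7* label. The difference of *CCL28* and the other 48 genes between the labels is fixed by the rule, and a link of this list to them was not tested.

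Of 8 symbols listed for octamer factors and their partners, some of them names of the same gene, 4 were tested. *POU2F3* rose from 18, 7 and 13 to 300, 350 and 344 counts (4.68) and *POU2AF3* rose as given, whereas *POU2F2*, the factor of B cells, fell (-2.79) and *POU2F1*, which is found in most cells, had -0.44 and did not pass the fold limit. No T cell marker (0 of 6) and no B cell marker (0 of 7) was among the genes analyzed here, although *CCR7* and *POU2AF1* are best known from lymphocytes. The smallest summed count of any gene analyzed was 51, so the absence of a marker is not a measured count of 0. Of macrophage and monocyte markers, 3 of 9 were tested, with *CD14* higher (2.33), *CSF1R* lower (-2.18) and *ITGAM* not past the threshold. Of 6 endothelial markers, 2 were tested and both were higher, *CDH5* (12, 71 and 84 to 1452, 1691 and 1554 counts, 4.78) and *VWF* (2.14). *PECAM1*, *KDR*, *TEK* and *CLDN5* were not among the genes analyzed here. The summed endothelial level was 1.12 to 5.5 CPM under the LV-NC label and 84.6 to 89.9 under the LV-*ATF7* label, most of it *CDH5*. The part of other cell types in the counts of the 49 genes was not tested.

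Simple epithelium markers were mixed, with 3 of 9 higher, among them *KRT7* (4.02) and *KRT19* (3.34), and 2 lower, *EPCAM* (-0.72) and *CLDN3* (-1.54). Of 6 neuronal markers 2 were tested, and both, *SYP* (-3.30) and *TUBB3* (-3.84), were lower, although *SEMA5B*, *RELN* and *GABRP* carry names from the nervous system. Of 7 melanocyte markers 2 were tested, with *PMEL* higher (1.13) and *MITF* lower (-1.21). Of 8 fibroblast markers 2 were tested. *COL1A1* was called lower (-1.13), and *DCN* had 2.24 and did not pass. The *DCN* counts were 39, 59 and 51 against 31, 0 and 0, so all its LV-NC reads were in replicate 1. Of 22 cancer testis antigens 1 was tested, *MAGEA12*, and it was called lower (-0.64).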

How the data were processed

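RNA-seq was performed on HaCaT cells labeled LV-NC or LV-*ATF7*, with 3 libraries per group. The authors captured RNA on oligo(dT) beads, sequenced it on the NovaSeq platform and filtered reads by quality. The values used here are their deposited raw counts of reads per gene, and the submitters' processing notes name GRCh38. The aligner, counting program, annotation and strandedness are not given in the sources used here. The deposited FPKM values were not used, nor were the authors' deposited fold changes, p-values and adjusted p-values, which hold their own comparison. All count columns were matched to a sample. The labels do not say whether replicates came from separate cultures, so p-values measure only the spread between these libraries, which may be technical.

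The 49 genes, the gene lists and the rules for naming genes were chosen with earlier results of these data known. Pathway partners were listed after the 49 genes were known, and roles were assigned after their values were seen. Genes named with every library were the 25 with the highest lowest LV-*ATF7* count, those at the thresholds, the 3 with the largest CV and *ATF7*, then up to 20 relatives and neighbors by size of change and up to 4 genes of each list. All others are said to be chosen after their values were seen.

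Library sizes were scaled by TMM, and the quasi-likelihood test of edgeR 4.0.16 (glmQLFTest, R 4.3.3) was run on the 12462 genes that passed filterByExpr, with Benjamini-Hochberg adjustment. The 37 other genes were left out of the test. Calls required a fold change of 1.5 or more beside an adjusted p under 0.05. Folds of the 49 genes are ratios of summed counts over effective library sizes with exact (Clopper-Pearson) 95% intervals, which cover counting error only. Where all LV-NC libraries were at 0, the fold is a lower bound against 3 counts per library. This bound had been planned for every gene with 3 or fewer LV-NC counts in each library, and ratios with intervals replaced it where any read was present. RPKM is TMM CPM per kilobase of exon counted once in GENCODE release 29, matched by gene identifier for 12485 genes, and is not a deposited value. Total counts were 16686472 to 20562768 per library, and at the counts of the 49 genes both counting error and single LV-NC libraries move a fold. Relatives with a root shared by over 40 genes were not used. The pipeline was tested on simulated counts. Python 3.11.15 was used for tables and figures. DESeq2 1.42.0, library size only, other count filters, other thresholds, other distances, the replicate number as a block and each library left out in turn were run as alternatives. Some genes that met the rules for naming are not reported here.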

Additional observations from a re-analysis of the deposited data

How the results depend on the processing

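Other thresholds changed the number of genes chosen: 106 at 30 counts or more in each LV-*ATF7* library, 20 at 120 or more, 18 with at most 3 counts in each LV-NC library and 120 with at most 20. With 1 library left out the number ranged from 50 to 79. All 49 genes remained in each case, which is fixed in advance, since leaving out a library only removes a condition. The 79 came without LV-NC replicate 1, where the 30 genes gained had 11 to 41 counts in that library. On TMM-scaled counts 46 were kept, without *DNASE1L3*, *ERBB4* and *LRRC55*, and 0 were gained. Of 256 alternative folds of the 32 genes that the naming rule gave, 0 reversed, an outcome that the thresholds on counts fix in advance. Leaving out 1 LV-NC library moved the fold of 18 of these genes by over 1.5 times, with the floor of 3 counts per library used where no LV-NC read was left. Without LV-NC replicate 1, *CCL28* and *UBXN10* moved by 1.99 on the log2 scale, *CLDN16* by 1.57, *PGLYRP4* by 0.99, *SLC28A3* by 0.72, *PTGIS* by 0.62, *EXOC3L4*, *STOM* and *SORBS2* by -0.60, *CYP24A1* by -2.18 and *CD200R1L*, whose only LV-NC read it held, by -3.18. Without replicate 2, *VTCN1* moved by 0.97, *RELN* by 0.87, *LRRC55* by 0.85 and *CLDN16*, *VWA5B1*, *EXOC3L4*, *PTGIS*, *IDO1*, *STOM*, *CD200R1L*, *SORBS2*, *CYP24A1* and *ERBB4* by -0.61. Without replicate 3, *ERBB4* moved by 0.74, *CCR7* by 0.59, *EXOC3L4* by -1.13 and *STOM* and *SORBS2* by -2.13. Leaving out an LV-*ATF7* library or changing the scaling moved none by more than 0.17 on the log2 scale. Genes called between the labels numbered 6588, 4091 at a fold of at least 2, and 6176 to 7059 with 1 library left out. Neighbors called higher were 40, 26 within 50 kb and 153 within 500 kb. With 1 library left out, neighbors higher ranged from 37 to 42, relatives from 55 to 64, list genes from 40 to 43 and partners from 22 to 25. The alternatives for partners and for the secretory list, which gave 16 genes higher in each, were added after seeing the data. Scaling by library size only moved the median of all genes by -0.16 and called 6749 genes, with 54 relatives, 34 neighbors, 39 list genes, 22 partners and 16 secretory genes higher. None of 239 called relatives, neighbors, partners and list genes changed sign over 12 fits, and 28 lost the call in at least 1. Leaving out 1 library moved the log2 fold change of 17 of these by over 1.5 times, among them *CLDN6* (-5.94) and *PTGS1* (-6.50) without LV-*ATF7* replicate 3, *COL5A3* (-7.34) without LV-*ATF7* replicate 1, *DHRS2* (-8.62) without LV-NC replicate 1, and *FLG* (4.09) and *FLG2* (6.13) without LV-NC replicate 3. Between libraries of the same replicate number, deviations from the group means had correlations of 0.058, -0.021 and 0.065. Unlike replicate numbers were not compared and LV-NC replicate 1 stood apart, so these values cannot settle whether the libraries were paired. With the replicate block 6518 genes were called, with 60 relatives, 40 neighbors, 40 list genes and 23 partners higher. At 10 or fewer reads per LV-NC library, counting error limits every ratio of the 49 genes.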
